A study of Homo sapiens with 9 samples.

Results

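The 10 genes described here act in the licensing of DNA replication and were followed by RNA-seq in MM1S, a long-established cell line from a human multiple myeloma. They were chosen by name, with earlier results of these data known. The set is MCM2, MCM3, MCM4, MCM5, MCM6 and MCM7, which encode the subunits of the replicative helicase, with MCM10, CDC6, CDT1 and GMNN. All 10 were found among the 58387 genes of the count table, and all 10 passed the filter on low counts that left 16600 genes for testing.

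The study asked how the transcriptome depends on PHF19, an accessory subunit of Polycomb repressive complex 2, which methylates histone H3. All cells were grown in RPMI1640 medium with serum, and no drug treatment is named. KD_Rescued cells (n = 2) carried the shRNA against PHF19 together with a PHF19 that this shRNA does not recognise, PHF19_KD cells (n = 3) carried the shRNA alone, and shEV cells (n = 3) carried the empty vector. The labels name lentivirus as the carrier of the shRNA and of the empty vector. The labels do not say whether replicates were separate cultures, so each p-value reflects only library-to-library spread, part of which could be technical. A further library has labels that disagree: its title calls it a knockdown, whereas its shRNA field names shRNA-resistant PHF19. Its library name shares a prefix with those of PHF19_KD, and a lane with those of PHF19_KD and shEV. This library entered no main test and its values are given apart.

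Before a cell copies its DNA, the origin recognition complex, CDC6 and CDT1 load the ring of MCM2 to MCM7 onto origins in G1, which licenses them. In S phase CDC45 and the GINS complex join the ring to form the active helicase, with help from MCM10, while geminin (GMNN) binds CDT1 and blocks further loading so that each origin fires once. Many of these genes are transcribed under E2F control as cells enter the cycle, and MCM levels are widely used as signs of proliferation.

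The libraries held 23644123 and 23751353 counts in KD_Rescued, 10609798 to 12024913 in PHF19_KD and 16974728 to 22739741 in shEV, against 10164112 in the library with disagreeing labels. PHF19 itself, the check of the labels, stood at 218 and 220 normalised CPM (counts scaled to library size with TMM factors) in KD_Rescued, at 26.0 to 27.5 in PHF19_KD and at 103 to 124 in shEV, and the count does not separate the introduced transcript from the native one. The 9 plasma cell and myeloma markers were all expressed, with summed levels of 9294 to 9400 CPM in KD_Rescued, 7982 to 8077 in PHF19_KD and 10420 to 11530 in shEV. In PHF19_KD relative to shEV 4 of these 9 were called higher, among them MAF (2.25-fold) and CD38 (2.24-fold), and 3 lower, namely IGJ (2.38-fold), TNFRSF17 (2.10-fold) and IRF4 (1.71-fold). By the same rule, given below, 34.9% of all tested genes were called higher, 34.2% lower and 69.1% in either direction. Summed markers of T and NK cells, monocytes, erythroid cells, epithelial cells and fibroblasts stayed at or below 10.6 CPM per list in these libraries. Of these lists, the 5 fibroblast markers summed to 0.957 to 1.54 CPM in KD_Rescued, 9.89 to 10.6 in PHF19_KD and 2.53 to 2.78 in shEV, and the 4 erythroid markers to 7.51 to 7.78, 1.56 to 2.14 and 5.61 to 6.15 CPM in the same order. Monocyte markers summed to 0.751 to 0.790 CPM in KD_Rescued, 2.60 to 3.47 in PHF19_KD and 0.759 to 1.00 in shEV, epithelial markers to 0.376 to 0.458, 0.780 to 1.32 and 0.271 to 0.885 CPM, and T and NK cell markers to 2.20 to 2.38, 0.954 to 1.65 and 1.57 to 2.36 CPM. Of the fibroblast markers, PDGFRB (7.65 CPM in PHF19_KD, against 2.02 in shEV) and COL1A1 (2.54 CPM in PHF19_KD, against 0.578 in shEV) were called higher in PHF19_KD than in shEV, while COL1A2, COL3A1 and DCN stayed below 0.1 CPM in all libraries. The monocyte marker ITGAM (4.42-fold) and the epithelial marker KRT18 (3.34-fold) were also called higher. In the same comparison the erythroid marker HBB (3.53-fold) and the T cell marker CD3E (2.46-fold) were called lower. These markers are named after their values were seen, and their part in the results was not tested. Mitochondrially encoded genes took 4.99% and 5.18% of counts in KD_Rescued, 9.02% to 10.0% in PHF19_KD and 2.84% to 3.32% in shEV. Per the library names, both KD_Rescued libraries came from a different sequencing lane from all others, so the effects of rescue and of lane cannot be told apart.

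All 10 licensing genes fell in PHF19_KD cells relative to shEV cells, and the PHF19_KD libraries lay below every shEV library for each of them. The median log2 fold change was -3.39, with CDC6 the most affected at -4.84 and MCM3 the least at -2.38, whereas the median of all tested genes was 0.03. Calls were made with the edgeR quasi-likelihood test at a Benjamini-Hochberg adjusted p below 0.05 over all tested genes. By that rule 34.2% of tested genes were lower in PHF19_KD, 34.9% were higher and 69.1% changed in either direction, so a call alone sets few genes apart. Each of the 10 was also at least 4-fold lower, which held for 3.31% of tested genes. Groups that did not overlap in the lower direction were found for 35.3% of tested genes. In bulk RNA, fewer cells in the part of the cycle that uses these genes and less RNA per cell cannot be told apart. With mitochondrially encoded genes left out all 10 calls stood, with a median of -3.43.

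CDC6, the ATPase that loads the helicase with the origin recognition complex, had 120 and 119 CPM in KD_Rescued, 3.72, 3.56 and 4.86 CPM in PHF19_KD, against 112, 114 and 123 CPM in shEV. The PHF19_KD libraries sat far below both other groups, which overlapped each other. CDC6 fell by 4.84 on the log2 scale (SE 0.09) in PHF19_KD relative to shEV, which is 28.7-fold (edgeR, adjusted p = 1.78e-12), and its place was 36 from the lowest log2 fold change among the 16600 tested genes. The PHF19_KD value rests on 40 to 56 counts per library, so its counting error is wider than for the helicase subunits. MCM10, which helps activate the loaded helicase, had 46.4 and 44.3 CPM in KD_Rescued, 3.26, 2.32 and 3.30 CPM in PHF19_KD, against 61.8, 62.8 and 66.7 CPM in shEV. No group overlapped another for MCM10, and the order was shEV above KD_Rescued above PHF19_KD. It fell 21.6-fold in PHF19_KD relative to shEV (edgeR, log2 fold change -4.43, SE 0.10, adjusted p = 6.08e-12), on 28 to 38 counts per PHF19_KD library.

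Among the ring subunits, MCM4 had 501 and 504 CPM in KD_Rescued, 38.3, 40.2 and 38.4 CPM in PHF19_KD, against 594, 598 and 571 CPM in shEV. It was the subunit with the largest fall in PHF19_KD relative to shEV, 15.1-fold (edgeR, log2 fold change -3.91, SE 0.05, adjusted p = 9.46e-14). MCM3 had 341 and 346 CPM in KD_Rescued, 80.1, 81.2 and 79.7 CPM in PHF19_KD, against 411, 411 and 432 CPM in shEV. Its fall, 5.20-fold, was the smallest of the 10 (edgeR, log2 fold change -2.38, SE 0.04, adjusted p = 1.22e-12). The other subunits lay between these: all fell, with log2 fold changes of -3.58 for MCM5 (SE 0.09), -3.46 for MCM2 (SE 0.07), -3.33 for MCM6 (SE 0.05) and -2.82 for MCM7 (SE 0.06), and with adjusted p-values of 4e-11 or lower in edgeR. Together the 6 subunits took 0.191% of all counts in KD_Rescued, 0.0267% in PHF19_KD and 0.230% in shEV (means, n = 2, 3 and 3). MCM7 had non-whole estimated counts in 9 of 9 libraries and MCM4 in 7 of 9, which arises where reads are shared among genes, so both are less certain than the other members, whose counts were whole within a tolerance of 0.01.

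CDT1, the loading factor, had 31.1 and 31.3 CPM in KD_Rescued, 4.47, 4.96 and 4.60 CPM in PHF19_KD, against 41.2, 44.2 and 30.8 CPM in shEV. The third shEV library stood apart from the other two and lay just below the KD_Rescued libraries, so those groups overlapped. GMNN, the inhibitor of CDT1, had 32.1 and 33.6 CPM in KD_Rescued, 3.81, 5.05 and 5.46 CPM in PHF19_KD, against 33.0, 35.4 and 36.4 CPM in shEV. Factor and inhibitor fell together: the log2 fold change in PHF19_KD relative to shEV was -3.05 for CDT1 (SE 0.16, edgeR adjusted p = 2.68e-08) and -2.86 for GMNN (SE 0.11, edgeR adjusted p = 3.22e-10). The log2 ratio of CDT1 to GMNN, which does not depend on library scaling, averaged -0.02 ± 0.23 in PHF19_KD, against 0.13 ± 0.32 in shEV (SD, n = 3 each). The groups overlapped in this ratio (two-sided exact permutation p = 0.5). With 3 libraries against 3 this test cannot give a p below 0.1, so it cannot show that the ratio was unchanged.

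**Figure D1:**
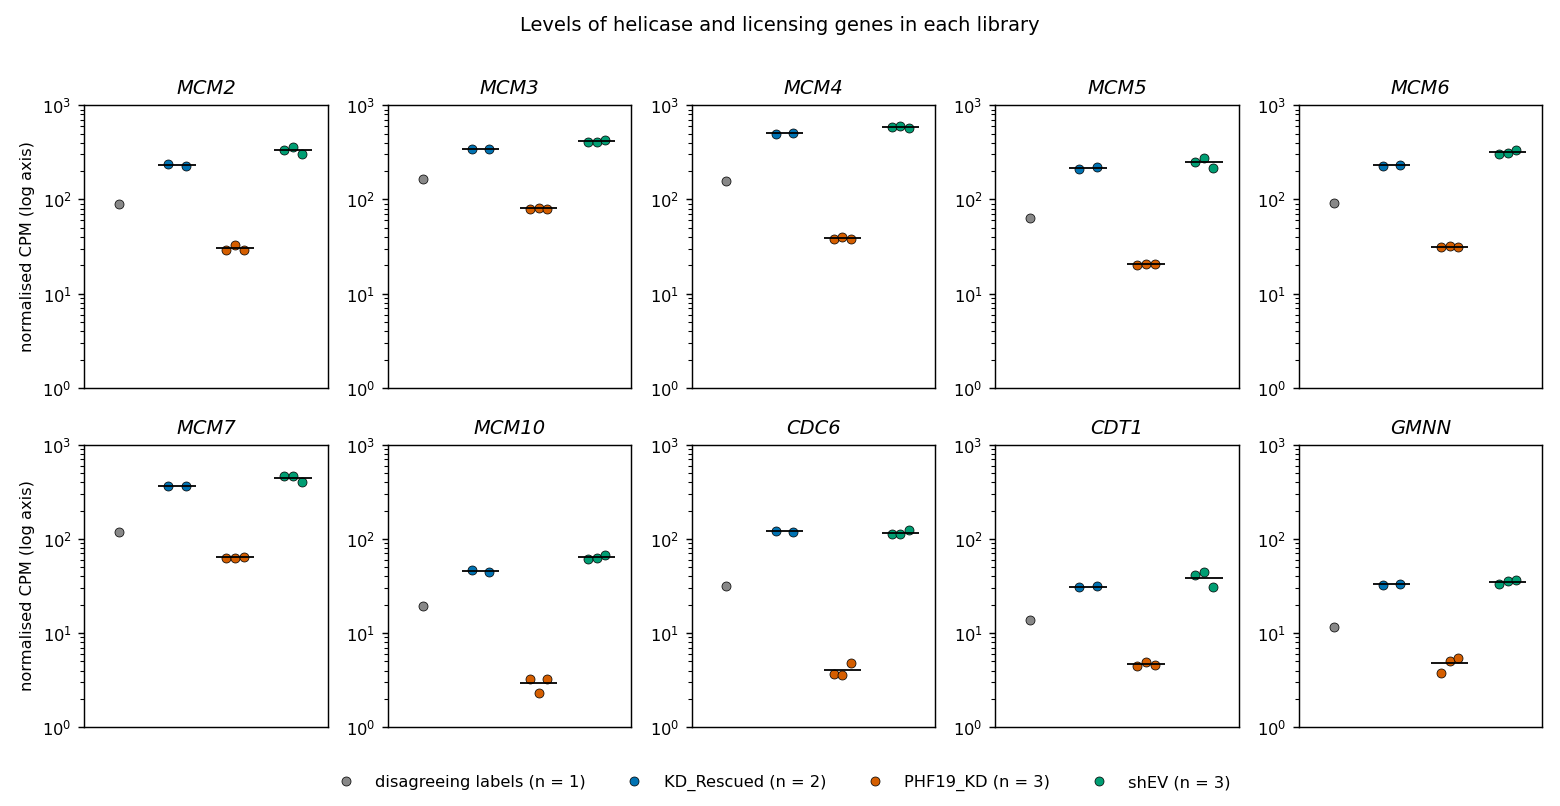
Normalised CPM (log axis) of each of the 10 genes in each library, with points for libraries and bars for group means; the library with disagreeing labels is grey. The 3 PHF19_KD libraries lie lowest in every panel, and the grey library lies between them and the other groups in all 10.

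All 10 genes were higher in the cells given resistant PHF19 than in the knockdown. KD_Rescued exceeded PHF19_KD for every member, against 33.9% of tested genes called higher, 29.5% called lower and 63.4% called in either direction, and each member was at least 4-fold higher, against 3.43% of tested genes. No member overlapped between these groups, and 40.9% of tested genes were likewise higher with no overlap. The median log2 fold change was 2.90, from 2.09 for MCM3 (SE 0.04, edgeR adjusted p = 6.13e-12) to 4.89 for CDC6 (SE 0.09, edgeR adjusted p = 2.81e-12), against 0.03 for all tested genes. CDC6 was 29.6-fold higher, MCM10 15.4-fold and MCM4 12.9-fold. Both comparisons with KD_Rescued also cross the lanes named above. This comparison shares its PHF19_KD libraries with the first, so the order of members in both is not independent.

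Some members were lower in the rescued than in the control cells. In KD_Rescued relative to shEV, 6 of 10 were lower, against 19.1% of tested genes called lower, 20.7% called higher and 39.8% called in either direction. These were MCM2 (log2 fold change -0.53, SE 0.07, adjusted p = 9.26e-05), MCM10 (-0.49, SE 0.07, adjusted p = 0.00021), MCM6 (-0.46, SE 0.05, adjusted p = 2.13e-05), MCM7 (-0.30, SE 0.06, adjusted p = 0.00257), MCM3 (-0.28, SE 0.04, adjusted p = 0.000332) and MCM4 (-0.23, SE 0.04, adjusted p = 0.00153), all from edgeR. The same 6 did not overlap between the groups, against 29.2% of tested genes in the lower direction. MCM2, for example, had 236 and 226 CPM in KD_Rescued, and 338, 358 and 305 CPM in shEV. MCM5 (-0.19, SE 0.08, adjusted p = 0.0841), CDT1 (-0.32, SE 0.12, adjusted p = 0.0633), GMNN (-0.09, SE 0.08, adjusted p = 0.431) and CDC6 (0.05, SE 0.06, adjusted p = 0.593) did not pass the edgeR test, and their groups overlapped. As a share of the shEV mean, the members stood at 69.2% (MCM2) to 103% (CDC6) in KD_Rescued, with a median of 81.8%, and at 3.48% (CDC6) to 19.2% (MCM3) in PHF19_KD, with a median of 9.51%. Without the third shEV library, MCM5 (-0.27, adjusted p = 9.09e-05) and CDT1 (-0.45, adjusted p = 1.43e-05) also passed in edgeR. When the library with disagreeing labels was counted with PHF19_KD or with KD_Rescued, none of the 6 passed after adjustment.

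**Figure D2:**
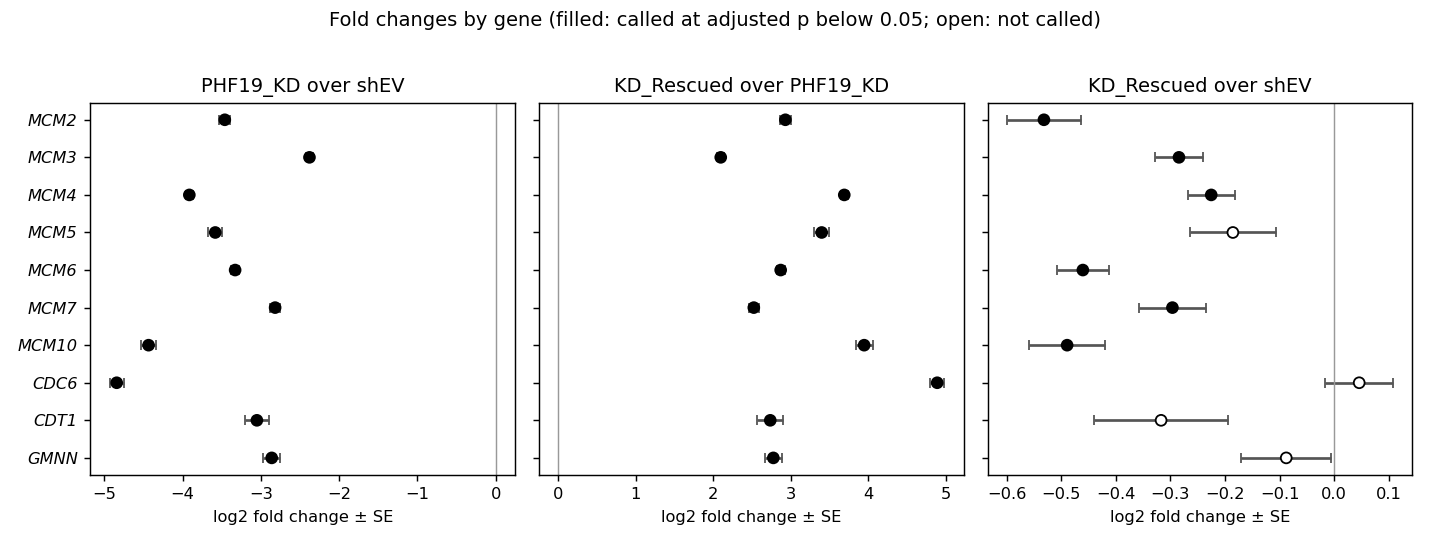
Log2 fold change with its standard error for each gene in the 3 comparisons, each panel with its own axis; filled points passed at an adjusted p below 0.05 and open points did not. All 10 genes are lower in PHF19_KD than in shEV and higher in KD_Rescued than in PHF19_KD, and 6 are lower in KD_Rescued than in shEV.

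The library with disagreeing labels was intermediate in its levels of the members. For all 10 members its level lay above every PHF19_KD library and below every KD_Rescued and shEV library. It held 25.8% (MCM5) to 39.4% (MCM3) of the shEV mean, with a median of 28.3%. Its CDC6 level of 31.7 CPM was 7.84 times the PHF19_KD mean, whereas its MCM7 level of 117 CPM was 1.85 times that mean. PHF19 was also intermediate there, at 63.3 CPM. Counted as PHF19_KD, this library changed the median of the members in PHF19_KD relative to shEV to -2.82, and all 10 remained called.

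Levels of different genes were compared per length, as CPM per kilobase of the longest principal transcript. Among the 6 ring subunits, which are present in equal numbers in the assembled ring, the highest over the lowest was 2.01 in KD_Rescued, 4.30 in PHF19_KD and 2.17 in shEV. MCM7 was highest in KD_Rescued (123 ± 1.40 CPM per kilobase, SD, n = 2) and shEV (151 ± 12.6, SD, n = 3), and MCM4 was next (120 ± 0.605 in KD_Rescued and 140 ± 3.46 in shEV). The order of this pair in KD_Rescued turns with the shortest principal transcript of MCM4, which gives it 124 CPM per kilobase, and in shEV the pair lay within the spread. In PHF19_KD MCM3 was highest (25.0 ± 0.248 CPM per kilobase, SD, n = 3). MCM5 was lowest of the subunits in every group, at 61.4 ± 1.76 CPM per kilobase in KD_Rescued (SD, n = 2), 5.83 ± 0.0622 in PHF19_KD, against 69.8 ± 8.15 in shEV (SD, n = 3 each). In KD_Rescued, MCM5, MCM6 (61.6 ± 0.510) and MCM2 (63.7 ± 1.91) did not differ beyond their spread. In PHF19_KD, MCM2 (8.36 ± 0.574) and MCM6 (8.43 ± 0.140) were likewise within their spread, as were MCM2 (92.1 ± 7.41) and MCM6 (84.7 ± 3.59) in shEV. GMNN stood next at 26.0 ± 0.856 CPM per kilobase in KD_Rescued, 3.78 ± 0.679 in PHF19_KD and 27.7 ± 1.38 in shEV, and MCM10 and CDT1 were lower. The place of CDC6 also depends on the transcript, since its principal transcripts run from 1948 to 4810 bases.

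The balance among the members was read from ratios. The log2 ratio of each gene to the mean of MCM2 to MCM7 was taken within each library. For CDC6 it was -1.31 and -1.33 in KD_Rescued, -3.36, -3.48 and -3.00 in PHF19_KD, and -1.76, -1.78 and -1.55 in shEV. For MCM3 it was 0.19 and 0.20 in KD_Rescued, 1.03, 1.00 and 1.02 in PHF19_KD, and 0.12, 0.07 and 0.26 in shEV. For MCM4 it was 0.75 and 0.75 in KD_Rescued, -0.03, -0.01 and -0.04 in PHF19_KD, and 0.65, 0.61 and 0.66 in shEV. Thus the ratio was higher for MCM3, and lower for MCM4 and CDC6, in all 3 PHF19_KD libraries than in any other library of the named groups. By the same measure MCM7 and CDT1 were higher, and MCM5 and MCM10 lower. Such separation was common among the members. Ratios with no overlap numbered 9 between PHF19_KD and shEV, 8 between KD_Rescued and PHF19_KD, and 7 between KD_Rescued and shEV. The differences between PHF19_KD and shEV were -1.58 for CDC6, -1.16 for MCM10, -0.67 for MCM4, 0.43 for MCM7 and 0.86 for MCM3. The mean contains the 6 subunits themselves, so their ratios sum to 0 in each library and are not independent. With groups of this size the smallest p an exact two-sided permutation test can give is 0.1 for PHF19_KD against shEV and 0.2 for both comparisons with KD_Rescued, so no ratio could pass, and the smallest adjusted p over the 33 ratio tests was 0.264. The ratio of CDT1 to GMNN overlapped in all 3 comparisons, with differences of -0.15 (PHF19_KD minus shEV), -0.06 (KD_Rescued minus PHF19_KD) and -0.21 (KD_Rescued minus shEV).

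**Figure D3:**
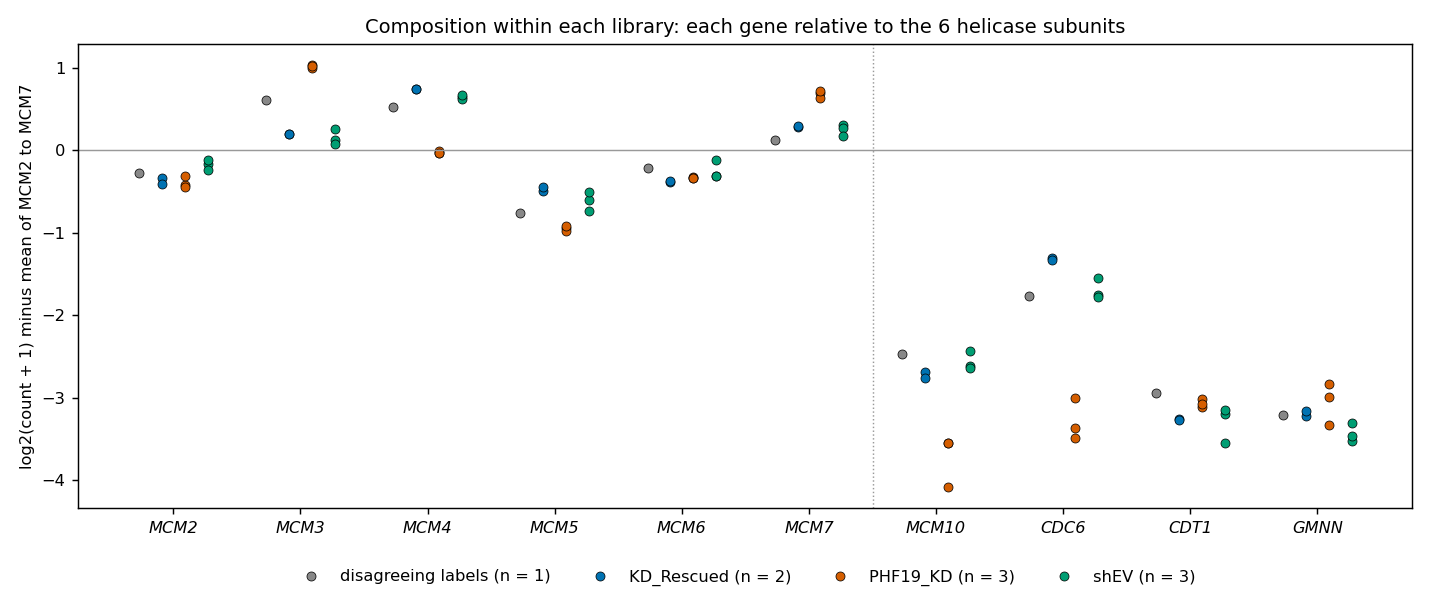
Log2 of each gene's count plus 1, minus the mean of that value over MCM2 to MCM7, in each library; points are libraries, coloured by group, and the library with disagreeing labels is grey. In the PHF19_KD libraries MCM3 and MCM7 sit above their place in shEV, and MCM4, MCM10 and CDC6 sit below it.

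Because the members moved together, the windows around their start sites were read, from 250 bases before to 50 after the start (RefSeq, GRCh38.p14). Windows were at hand for 8 members: MCM2, MCM3, MCM6, MCM7, MCM10, CDC6, CDT1 and GMNN. The 5 motifs below were searched on both strands. The E2F motif was spelled TTTGGCGC, TTTCCCGC, TTTCGCGC or TTTGCCGC, the CCAAT box CCAAT, the GC box GGGCGG, the cell cycle homology region TTTGAA or TTCGAA, and the E-box CACGTG. E2F proteins are transcription factors of the entry into S phase. The E2F motif was present in 7 of 8 members, in all but MCM10, against 6.642% of the 10042 tested genes with a window, 3.315% of all 35116 windows and 19.35% of the 341 genes with a window that were at least 4-fold lower in PHF19_KD. The CCAAT box was present in 6 of 8 members, against 43.44% of tested genes and 58.06% of those at least 4-fold lower. The GC box was present in 6 of 8, against 75.78% and 73.9%, the E-box in 3 of 8, against 12.84% and 12.9%, and the cell cycle homology region in 1 of 8, against 15.7% and 33.14%, in the same order. A gene with several windows counts as holding a motif if any of them does; MCM7 has 3 windows and GMNN 2. These are matches of letters and do not show binding. The 341 genes at least 4-fold lower include the 8 members, so their shares are not independent of the members' counts. The stretches that hold the E2F matches are shown with those matches in capitals and read 5′ to 3′ along the gene's strand.
MCM2, chr3:127598393-127598444, plus strand: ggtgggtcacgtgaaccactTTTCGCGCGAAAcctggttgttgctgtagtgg
MCM3, chr6:52284719-52284936, minus strand: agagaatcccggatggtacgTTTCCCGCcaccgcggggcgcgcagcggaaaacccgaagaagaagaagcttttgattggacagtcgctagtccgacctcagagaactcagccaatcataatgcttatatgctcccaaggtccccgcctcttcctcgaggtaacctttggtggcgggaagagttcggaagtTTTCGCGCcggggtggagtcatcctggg
MCM6, chr2:135876502-135876615, minus strand: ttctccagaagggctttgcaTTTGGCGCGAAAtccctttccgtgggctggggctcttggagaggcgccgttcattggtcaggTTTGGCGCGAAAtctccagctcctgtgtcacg
MCM7, chr7:100101379-100101604, minus strand: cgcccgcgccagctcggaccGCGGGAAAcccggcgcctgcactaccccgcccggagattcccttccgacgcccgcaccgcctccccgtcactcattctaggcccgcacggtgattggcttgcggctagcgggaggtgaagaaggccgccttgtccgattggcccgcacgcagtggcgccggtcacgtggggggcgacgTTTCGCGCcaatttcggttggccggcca
CDC6, chr17:40287866-40287913, plus strand: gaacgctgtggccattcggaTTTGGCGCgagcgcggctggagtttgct
CDT1, chr16:88803734-88803781, plus strand: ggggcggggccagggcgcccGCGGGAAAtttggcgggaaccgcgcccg
GMNN, chr6:24775313-24775360, plus strand: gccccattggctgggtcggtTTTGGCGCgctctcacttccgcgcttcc
In MCM2 and MCM6 the capitals hold overlapping matches on opposite strands, and in MCM7 the second match overlaps a CCAAT box by its last letter. MCM6 held 4 matches, MCM2, MCM3 and MCM7 2 each, and CDC6, CDT1 and GMNN 1 each. The member with the largest fall, CDC6, held 1 match and the member with no match, MCM10, had the next largest. MCM4 and MCM5 had no window, and a link between matches and fall was not tested.

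**Figure D4:**
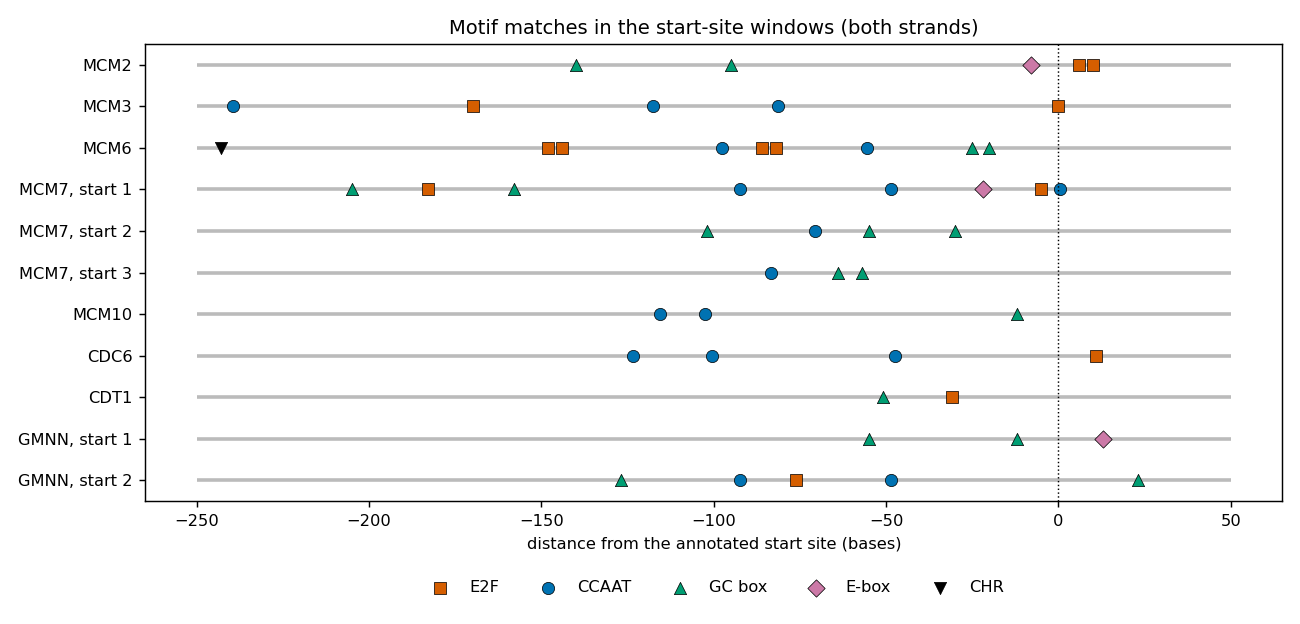
Positions of the 5 motifs, in bases from the annotated start site, in the 11 windows of 8 members; markers are matches on either strand. E2F matches (squares) lie in one window each of MCM2, MCM3, MCM6, MCM7, CDC6, CDT1 and GMNN, and MCM10 has none.

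Other genes of the pathway were grouped by step. Their counts stand beside shares of all tested genes. In PHF19_KD relative to shEV 34.2% of these were lower and 34.9% higher. In KD_Rescued 33.9% were higher and 29.5% lower than in PHF19_KD, and 19.1% were lower and 20.7% higher than in shEV. Of 8 genes of origin recognition and loading, 6 were lower in PHF19_KD than in shEV, with a median log2 fold change of -0.41. ORC1, the largest subunit of the origin recognition complex, averaged 3.26 ± 0.0806 CPM in PHF19_KD, against 58.2 ± 0.993 CPM in shEV (SD, n = 3 each; log2 fold change -4.16, SE 0.08, edgeR adjusted p = 2.22e-12). ORC6, the smallest subunit, also fell (-3.01, SE 0.10), as did ORC5 (-1.36, SE 0.09). ORC2 (-0.12, edgeR adjusted p = 0.116) and KAT7, a histone acetyltransferase that acts at origins (-0.09, adjusted p = 0.219), did not pass; they are named because they were the exceptions, after their values were seen. With upper-quartile scaling both of these values turned positive, and with no filter on low counts both were called lower (ORC2 -0.21, adjusted p = 0.0189; KAT7 -0.18, adjusted p = 0.0296). The fold changes of ORC1 and ORC6 lay within the range of the members. KD_Rescued exceeded PHF19_KD for 7 of 8, led by ORC1 (3.94, SE 0.08), and for 4 of 8 with upper-quartile scaling or with the library with disagreeing labels counted as KD_Rescued. In KD_Rescued relative to shEV, ORC6 was higher (0.46, SE 0.07, edgeR adjusted p = 0.000372) and 3 were lower, among them ORC5 (-0.46, SE 0.09, adjusted p = 0.00132) and ORC1 (-0.21, SE 0.06, adjusted p = 0.00993). Without the first KD_Rescued library 1 was lower, ORC1 losing its call (edgeR adjusted p = 0.117), and without the second 2 were. With the library with disagreeing labels counted as PHF19_KD or as KD_Rescued, 2 and 1 were lower, and the calls of ORC6 (edgeR adjusted p = 0.489 and 0.909) and ORC1 (0.753 and 0.229) were lost.

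All 13 genes of helicase activation and origin firing were lower in PHF19_KD than in shEV, against 34.2% of tested genes. Their median log2 fold change was -2.62. CDC45, which completes the active helicase, averaged 3.63 ± 0.717 CPM in PHF19_KD, against 66.0 ± 0.654 CPM in shEV (SD, n = 3 each), a log2 fold change of -4.19 (SE 0.10). GINS2 (-4.55, SE 0.11) and GINS1 (-3.56, SE 0.08), both subunits of the GINS complex, fell too. All 13 were higher in KD_Rescued than in PHF19_KD, against 33.9% of tested genes, with a median of 2.58. Against shEV, KD_Rescued had 5 lower and 2 higher, beside 19.1% and 20.7% of tested genes. The higher ones were the helicase gene RECQL4 (0.64, SE 0.09, edgeR adjusted p = 0.000232) and DBF4B, a paralog of the activator of the CDC7 kinase (0.44, SE 0.10, adjusted p = 0.0038). The lower count was 3 without the first KD_Rescued library, 1 without the second, and 0 with the library with disagreeing labels in either group. With that library counted as PHF19_KD or as KD_Rescued the RECQL4 call was lost (edgeR adjusted p = 0.356 and 0.766), and as KD_Rescued that of DBF4B too (0.897).

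Of 15 tested genes that control CDT1, CDC6 and geminin, 14 were lower in PHF19_KD than in shEV, against 34.2% of all tested genes. Their median was -1.25. Among those that fell were DTL, which directs destruction of CDT1 (-4.21, SE 0.07), CCNA2, the gene of cyclin A (-3.59, SE 0.06), and CCNF, a ubiquitin ligase subunit that targets CDC6 (-2.73, SE 0.07). FZR1, an activator of the anaphase-promoting complex, was the exception (-0.13, edgeR adjusted p = 0.272, and 0.03 with upper-quartile scaling), and is named after its value was seen. It was called lower without the third shEV library (-0.23, edgeR adjusted p = 0.00343) and with no filter on low counts (-0.22, adjusted p = 0.00343). Of the 15, 14 were higher in KD_Rescued than in PHF19_KD, against 33.9% of all tested genes, or 9 with the library with disagreeing labels counted as KD_Rescued. Relative to shEV 5 were lower and 1, FZR1 (0.34, SE 0.10, edgeR adjusted p = 0.0218), was higher, beside 19.1% and 20.7% of all tested genes. The lower count was 2 without the first KD_Rescued library, 1 without the second, 3 without the third PHF19_KD library, 1 with the library with disagreeing labels in either group, and 3 with upper-quartile scaling, a minimum of 5 CPM or a replicate block. FZR1 lost its call without the first or the second KD_Rescued library (edgeR adjusted p = 0.101 and 0.0891), in a fit of KD_Rescued and shEV alone (0.0558), and with the library with disagreeing labels as PHF19_KD or as KD_Rescued (0.0629 and 0.332). All 7 genes of fork protection and helicase unloading were lower in PHF19_KD than in shEV and higher in KD_Rescued than in PHF19_KD. The shares of all tested genes were 34.2% and 33.9%, and the medians of the 7 were -2.20 and 2.23. Among the fork genes were CLSPN (claspin, -4.22 and 4.10), WDHD1 (-2.89 and 2.74) and TIMELESS (-1.95 and 1.94). In KD_Rescued relative to shEV 1 of 7, CUL2, was lower (-0.18, edgeR adjusted p = 0.0326), against 19.1% of all tested genes. CUL2 lost its call without the first or the second KD_Rescued library (edgeR adjusted p = 0.119 and 0.177), with a minimum of 5 CPM (0.0603), with a replicate block (0.0648), and with the library with disagreeing labels as PHF19_KD or as KD_Rescued (0.115 and 0.0917). Counts were non-whole in 9 of 9 libraries for ORC2, KAT7, RECQL4 and CCNF, and in 8 for CCNA2. They were non-whole in 5 for CLSPN, 4 for GINS2 and 3 for FZR1, so all these genes are less certain.

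Among the relatives and partners of the MCM proteins, calls went in both directions. Of all tested genes, 34.2% were lower and 34.9% higher in PHF19_KD relative to shEV. MCM8, a helicase of homologous recombination, averaged 11.3 ± 1.58 CPM in PHF19_KD, against 79.3 ± 10.2 CPM in shEV (SD, n = 3 each), a log2 fold change of -2.82 (SE 0.12, edgeR adjusted p = 1.02e-08). MCMBP, which binds MCM subunits (-1.36, SE 0.05), and MCM3AP (-0.20, SE 0.05) fell as well, so that 4 of 5 were lower, although MCM3AP lost its call with upper-quartile scaling (-0.05, edgeR adjusted p = 0.400), and 2 of 5 were lower with the library with disagreeing labels counted as KD_Rescued. MCMDC2 was higher (1.40, SE 0.39, edgeR adjusted p = 0.00688), at 1.13 ± 0.354 CPM in PHF19_KD, against 0.424 ± 0.105 CPM in shEV (SD, n = 3 each). Counts were non-whole in all 9 libraries for MCMDC2 and in 8 for MCM3AP. In KD_Rescued relative to PHF19_KD 4 were higher, or 2 with that library counted as KD_Rescued, and MCMDC2 was lower (-1.17, SE 0.42, edgeR adjusted p = 0.0273). The MCMDC2 call was lost without the first or the second PHF19_KD library (edgeR adjusted p = 0.0508 and 0.108), without the first or the second KD_Rescued library (0.0597 and 0.169), with DESeq2 (0.110), with no filter (0.0534) and with that library as PHF19_KD (0.0503), and the gene drops out at a minimum of 5 CPM. MCMBP, 1 of 5, was also lower in KD_Rescued than in shEV (-0.54, SE 0.05, edgeR adjusted p = 1.31e-05), against 19.1% of all tested genes.

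**Figure D5:**
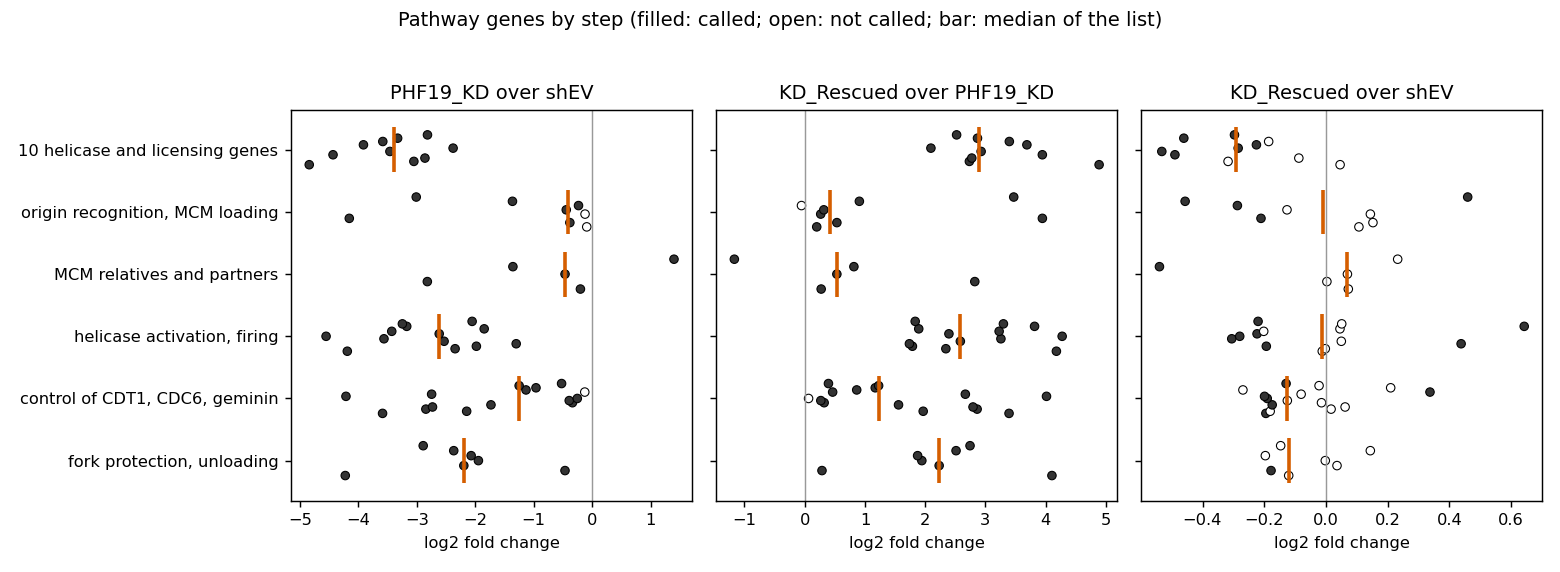
Log2 fold change of each tested gene by step of the pathway in the 3 comparisons, each panel with its own axis; filled points were called, open points were not, and the bar is the list median. The 10 members have the lowest median in PHF19_KD over shEV, -3.39, and origin recognition and the MCM relatives have the medians nearest 0.

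Among the members, MCM2 and MCM6 had the most alike profiles over the 8 libraries, with a root mean square difference of 0.110 in centred log2 CPM, and CDC6 and MCM3 the least alike, at 1.26. Outside the set, the genes closest to the members' mean profile, of 12406 ranked, included GINS1 (0.0810), WDR76 (0.102), CCNA2 (0.107) and MKI67 (0.107). MKI67 encodes the proliferation marker Ki-67. Their directions follow from the choice, which used the same 8 libraries, and are given as a description. The log2 fold changes were 3.26 for GINS1, 3.34 for WDR76, 3.39 for CCNA2 and 3.35 for MKI67 in KD_Rescued relative to PHF19_KD, and -3.56, -3.58, -3.59 and -3.48 in PHF19_KD relative to shEV.

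The protein-coding genes next to the members were read as well. Of 20 neighbours 16 were tested, and in PHF19_KD relative to shEV 8 were lower, 3 higher and 5 not called, with a median log2 fold change of -0.18. That is 11 of 16 called, close to the 69.1% of all tested genes called in either direction. By direction, 34.2% of all tested genes were called lower and 34.9% higher. PRKDC, beside MCM4, averaged 329 ± 7.41 CPM in PHF19_KD, against 627 ± 49.8 CPM in shEV (SD, n = 3 each; -0.93, SE 0.05, edgeR adjusted p = 1.77e-08), and COPS6, beside MCM7, also fell (-0.49, SE 0.05). AP4M1, which overlaps MCM7, did not pass (-0.17, SE 0.11, edgeR adjusted p = 0.185). Without a stated strand setting, reads from the stretch this pair shares cannot be told apart. RARA, beside CDC6, was higher (0.65, SE 0.10, edgeR adjusted p = 0.000282), as was OPTN, beside MCM10 (0.44, SE 0.05, adjusted p = 3.54e-06). The largest rise was in RASD2, beside MCM5 (2.795, at 0.743 CPM in PHF19_KD against 0.103 in shEV). The largest fall was in PODXL2, beside MCM2 (-1.29, at 0.398 against 0.999 CPM). Both were called at these low levels. UBE2V2, on the other side of MCM4 from PRKDC, also fell (-0.73, SE 0.06). Counts were non-whole in 9 of 9 libraries for RARA and AP4M1, in 6 for UBE2V2 and in 5 for COPS6. AP4M1 was called lower without the third shEV library (-0.28, edgeR adjusted p = 0.0110) and with no filter (-0.27, adjusted p = 0.0242). With upper-quartile scaling 4 neighbours were lower and 5 higher, and 5 were lower without the first PHF19_KD library, with DESeq2, with a minimum of 5 CPM or with the library with disagreeing labels counted as PHF19_KD. The miRNA genes within an MCM7 intron were too low to test, with totals over 9 libraries of 2 counts for MIR106B, 5 for MIR93 and 23 for MIR25.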

How the data were processed

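The authors deposited 1 table of estimated counts per gene, not scaled between libraries. The submitters' processing notes name CASAVA, RSEM and hg19 without roles, while the table's name refers to salmon, so the program that made the estimated counts is not settled, and neither annotation nor strand setting is given in the sources used here. All 9 columns matched a library by its description. These were rounded to whole numbers, then fitted with edgeR 4.0.16 (R 4.3.3) in 1 model of group means over 8 libraries: filterByExpr, TMM, robust dispersions, glmQLFit and glmQLFTest, with Benjamini-Hochberg adjustment over 16600 genes and calls at 0.05. Standard errors are the log2 fold change over the square root of F. Ratios used a pseudocount of 1 count and exact two-sided permutation tests (scipy 1.17.1), likeness used log2 CPM with a prior count of 2 in genes with a mean of at least 1, and transcript lengths came from GENCODE 29.

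Replicates differed beyond counting noise (chi-square per degree of freedom 1.37 to 9.15 over whole-count genes with a sum of at least 20, the third shEV library farthest), so none was taken for a library deposited more than once, which does not show that they were separate cultures. The members and gene lists were chosen with earlier results of these data known. Named are the 10 members, PHF19, at most 3 genes per direction and comparison of each pathway list with the lowest adjusted p, each member's neighbours, the intronic miRNA genes of MCM7, and the 5 genes most like the members, of which 1 is not reported here. The text gives part of these, and the pathway genes and neighbours it shows were picked with their values in view. Exceptions are marked. The test was checked on simulated counts of PHF19_KD and shEV, where false calls exceeded the nominal rate and most of the smallest changes were missed; its check of fitted fold sizes was reset after a first criterion failed. Alternatives were upper-quartile scaling, DESeq2 1.42.0, limma-voom 3.58.1, other filters, fits of 2 groups, no mitochondrially encoded genes, the library with disagreeing labels in either group, each library left out, other ratio pseudocounts and a replicate block.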

Additional observations from a re-analysis of the deposited data

How the results depend on the processing

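The 180 member values under alternatives kept direction and call in PHF19_KD against shEV, and likewise 180 of 180 in KD_Rescued against PHF19_KD. In KD_Rescued against shEV 153 of 180 did, 12 lost the call, 11 gained it and 4 reversed. All 12 losses came from counting the library with disagreeing labels in a group: members called lower then numbered 0, against 6, with it as PHF19_KD (0 at an unadjusted p below 0.05 in edgeR) and 0 with it as KD_Rescued (5 unadjusted), and other tools were not run on these settings. Genes called in this comparison then numbered 4047 and 2464, against 6599, and 6207 against 10526 in KD_Rescued against PHF19_KD with it as KD_Rescued. Leaving out 1 library gave 4048 to 7539 genes called in KD_Rescued against shEV, lowest without the second KD_Rescued library and 4253 without the first. The gains were MCM5 and CDT1, and up to 8 members were lower. The reversed CDC6 values were -0.0023 (DESeq2), -0.0049 (no filter), -0.0018 and -0.39 (that library as PHF19_KD and as KD_Rescued). In PHF19_KD against shEV, ORC2 (0.034), KAT7 (0.063) and FZR1 (0.030) reversed with upper-quartile scaling and KAT7 (0.025) with a minimum of 5 CPM. The causes were not tested.

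Upper-quartile scaling moved the median of all genes to 0.19 in PHF19_KD against shEV and -0.12 in KD_Rescued against PHF19_KD, and the share of calls that were higher to 60.6%, against 50.5%, and 42.1%, against 53.4%. The members' median was then -3.24 in PHF19_KD against shEV. Of the pathway lists under all alternatives, origin genes lower in PHF19_KD against shEV numbered 5 to 8, control genes 12 to 15 and MCM relatives 2 to 4, while activation and fork genes stayed at 13 and 7. Leaving out 1 library turned some small ratio differences, which ranged from -0.17 to 0.061 for CDT1 to GMNN and from -0.022 to 0.054 for MCM2 (KD_Rescued minus PHF19_KD), and from -0.0041 to 0.067 for MCM7 and -0.092 to 0.11 for CDT1 (KD_Rescued minus shEV, both relative to the ring).

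Deviations of same-numbered libraries from their group means correlated at -0.01 to 0.03, so the replicate numbers do not pair them. With a replicate block 11537, 10341 and 6387 genes were called in PHF19_KD against shEV, KD_Rescued against PHF19_KD and KD_Rescued against shEV, and MCM5 (-0.24, edgeR adjusted p = 0.0076) and CDT1 (-0.43, adjusted p = 0.00118) passed in the last. Depth limits MCM10 most, at 28 to 38 counts in PHF19_KD.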
